A study of Mus musculus with 4 samples.

Results

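The Fc gamma receptor genes are the genes of the receptors through which macrophages bind the constant part of IgG antibodies. They were taken here as 6 mouse genes. Fcgr1, Fcgr3 and Fcgr4 encode activating receptors, Fcgr2b encodes the inhibitory receptor, Fcer1g encodes the signalling gamma chain that the activating receptors share, and Fcgrt encodes the neonatal Fc receptor, which acts inside the cell. Members were chosen by name, with earlier results of these data known. They are 6 of 26089 genes with a curated RefSeq transcript. Around them, SMAD4 peaks were collected whose summit lay in the gene body or within 50 kb of a curated transcription start site (TSS) of the gene.

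The cells were alveolar macrophages (AMs), the macrophages of the lung airspaces, of wild-type C57BL/6J mice at 9 weeks of age, recovered by lavage of the lungs and sorted by flow cytometry. The study asked where SMAD4, the common partner of the SMAD proteins that act downstream of the TGFβ receptor, binds in AMs. It used HT-ChIPmentation, in which chromatin held by an antibody on beads is cut and tagged by the Tn5 transposase. There were 2 SMAD4 libraries (replicates 1 and 2, numbered in accession order) and 2 input libraries, all of the same genotype and age with no treatment named, so there is no second condition. The sources do not say whether the libraries came from separate mice, and the spread between them may be technical. SMAD4 was immunoprecipitated with a mix of antibodies, and no library from cells lacking SMAD4 was analysed here. Peak lists carry no expression values, so the labelled cell type could not be checked against marker genes.

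Activating Fc gamma receptors bind IgG on the outside and pass the signal to the gamma chain, whose tyrosine motif is phosphorylated by Src family kinases and then recruits Syk, which starts phagocytosis and cytokine release. Fcgr2b carries an inhibitory tyrosine motif that recruits the phosphatase SHIP1 and dampens that signal. The neonatal receptor pairs with beta-2-microglobulin, binds IgG and albumin in acidic endosomes and returns them to the cell surface. In macrophages the balance of activating and inhibitory receptors sets the response to antibody-coated particles.

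All 6 genes had at least 1 SMAD4 peak in their windows in each library. The windows held 26 of the 16369 peaks of replicate 1 and 27 of the 19015 peaks of replicate 2. Of these, 24 peaks of replicate 1 (92.3%) and 23 of replicate 2 (85.2%) overlapped a peak of the other library by at least 1 bp, against 69.4% and 59.2% of all peaks in the lists. The overlapping peaks merged into 23 shared regions, out of 10964 in the genome. A shared region lay in the window of 6 of 6 genes, where 39.1% of all 20923 protein-coding genes have one. The nearest TSS was that of a member at 12 of the 23 regions, and 5 of 6 genes, all but Fcgrt, were nearest to at least 1 region, against 21.5% of protein-coding genes. The other 11 regions were nearest to another gene, and they are named below with that gene. Regions were assigned to promoters (1 kb before to 100 bp after a TSS) and gene bodies by their mean summit. By summit, a promoter held a shared region at Fcgr3 alone, or 1 of 6 genes, against 3.1% of protein-coding genes. The gene body held one at Fcgr2b, Fcgr3 and Fcer1g, or 3 of 6 genes, against 13.9%. Because the genes Fcgr2b, Fcgr4 and Fcgr3 lie side by side on chromosome 1 and their windows overlap, these counts are not independent of each other.

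The sequences around the summits come first, since the positions and folds given afterwards belong to them. Each is a window of 201 bases centred on the mean summit of the strongest shared region of a gene, read from the plus strand of mm10 (RefSeq GRCm38). The region was that with the highest smaller fold of the 2 replicates among those nearest to the gene, or, for Fcgrt, in its window. Capitals mark matches, on either strand, to 1 of 11 consensus strings. The string TTRYRYAA stands for C/EBP factors. The string GAGGAA stands for the core bound by PU.1 and other ETS factors, and GAGGAAGT, which contains it, for a longer PU.1 site. TGASTCA stands for AP-1, TGTGGTY for RUNX and TTCYNRGAA for STAT. CACGTG is the E-box, AGGTCA the core bound by nuclear receptors and GTGGGAA the site of RBPJ. SMAD sites were searched as GTCTGG and, in a GC-rich form, as GGCGC or GGCCG. Shorter or other forms, such as GTCTG, were not searched, so a window without these strings may still hold a SMAD site.
Fcgr2b, chr1:170953271-170953471: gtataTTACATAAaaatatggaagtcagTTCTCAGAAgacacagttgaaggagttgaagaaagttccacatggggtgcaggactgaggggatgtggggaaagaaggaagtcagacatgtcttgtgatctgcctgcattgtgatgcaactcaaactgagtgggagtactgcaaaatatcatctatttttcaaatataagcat
Fcgr4, chr1:170998142-170998342: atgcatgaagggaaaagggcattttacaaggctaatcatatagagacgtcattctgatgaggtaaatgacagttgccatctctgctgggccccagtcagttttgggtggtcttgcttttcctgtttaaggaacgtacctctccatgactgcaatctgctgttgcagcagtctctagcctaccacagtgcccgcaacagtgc
Fcgr3, chr1:171053422-171053622: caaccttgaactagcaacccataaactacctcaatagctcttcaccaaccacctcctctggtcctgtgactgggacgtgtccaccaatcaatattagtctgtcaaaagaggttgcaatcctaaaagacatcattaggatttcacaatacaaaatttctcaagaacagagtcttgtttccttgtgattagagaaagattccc
Fcer1g, chr1:171233113-171233313: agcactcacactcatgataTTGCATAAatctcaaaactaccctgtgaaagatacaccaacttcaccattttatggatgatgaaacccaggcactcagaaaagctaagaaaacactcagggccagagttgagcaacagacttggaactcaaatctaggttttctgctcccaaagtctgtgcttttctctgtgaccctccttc
Fcgr1, chr3:96300806-96301006: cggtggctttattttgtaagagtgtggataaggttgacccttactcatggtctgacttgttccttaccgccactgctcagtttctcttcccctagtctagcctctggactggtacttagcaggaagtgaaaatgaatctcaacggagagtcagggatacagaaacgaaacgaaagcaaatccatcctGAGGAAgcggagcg
Fcgrt, chr7:45082602-45082802: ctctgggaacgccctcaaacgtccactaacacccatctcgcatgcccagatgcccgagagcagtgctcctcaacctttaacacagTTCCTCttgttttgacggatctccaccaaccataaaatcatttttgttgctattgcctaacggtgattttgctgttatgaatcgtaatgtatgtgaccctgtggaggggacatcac

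The window of Fcgr2b holds a C/EBP and a STAT match, that of Fcer1g a C/EBP match, and those of Fcgr1 and Fcgrt a GAGGAA match each, read as TTCCTC at Fcgrt. The windows of Fcgr4 and Fcgr3 hold none of the 11 strings. At Fcgr4 the summits of the libraries were 222 bp apart, so the window shown lies between them and contains neither. Promoter sequence is shown for the 2 receptor genes with a peak summit at the TSS. That of Fcgr3 was bound in both libraries and that of Fcgr1 in replicate 2 alone, and the latter was added after its values were seen. Each is the 250 bases before the TSS on the strand of the gene (minus), from RefSeq on GRCm38, so that the last base is the one next to the start. Capitals mark the same strings.
Fcgr3, chr1:171059404-171059653: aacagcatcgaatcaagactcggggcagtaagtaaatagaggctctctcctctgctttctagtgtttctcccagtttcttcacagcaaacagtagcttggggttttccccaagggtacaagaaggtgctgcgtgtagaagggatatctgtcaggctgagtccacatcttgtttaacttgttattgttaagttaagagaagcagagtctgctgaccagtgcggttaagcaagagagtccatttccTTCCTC
Fcgr1, chr3:96293970-96294219: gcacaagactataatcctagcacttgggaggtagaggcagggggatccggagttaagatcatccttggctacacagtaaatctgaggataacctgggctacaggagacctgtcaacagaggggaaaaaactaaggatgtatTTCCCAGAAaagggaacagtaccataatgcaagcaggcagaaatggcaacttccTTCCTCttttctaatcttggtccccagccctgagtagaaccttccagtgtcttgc

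Peak strength is given as fold enrichment, the fragments stacked at the summit plus 1 over the control level plus 1, as the authors deposited it. The summit pileup was recovered from fold and p as a whole number of fragments, and its exact Poisson 95% interval covers counting error only. Control levels were at the genome-wide background (2.08 fragments in replicate 1 and 1.22 in replicate 2) at all 12 regions nearest to a receptor gene. Folds of all shared regions had a median of 6.82 in replicate 1 and 9.48 in replicate 2, and 87.2% of them were higher in replicate 2. Folds are therefore compared with each list's own distribution rather than between the lists.

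Fcgr2b, the inhibitory receptor gene (chr1:170960558-170976071, minus strand), was nearest to 5 shared regions, the highest number among the 6 genes. Its strongest region, chr1:170953087-170953748, was intergenic, 22.7 kb downstream of the TSS and 7.2 kb past the end of the gene. It had a fold of 18.8 in replicate 1, from 57 fragments (43.2 to 73.9), and of 22.1 in replicate 2, from 48 fragments (35.4 to 63.6). These folds exceeded those of 96.8% of the peaks of replicate 1 and 94.2% of replicate 2. The summits of both libraries were 14 bp apart, and the fold intervals of 14.4 to 24.3 and 16.4 to 29.2 overlapped. This is the window with the C/EBP and STAT strings shown above, which lie 92 and 68 bp from the mean summit.

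A weaker region next to it, chr1:170951771-170952079, lay 8.6 kb past the gene end with folds of 5.52 and 8.12 in replicates 1 and 2. Within the gene, chr1:170967536-170967848 in intron 3 of 7 had the same folds, 5.52 and 8.12, from 16 and 17 fragments. The region chr1:170972973-170973264 in intron 1 had folds of 5.52 and 5.41, from 16 and 11 fragments. The latter holds 2 matches to GAGGAAGT, 10 and 84 bp from the mean summit. The summits of the libraries were 161 bp apart there, and the mean summit fell just outside the peak of replicate 1. The farther match begins at the summit of replicate 1. Upstream of the gene, chr1:170978700-170979104 lay 2.84 kb from the TSS, with folds of 7.47 and 8.12. Its window holds the only GTCTGG match of the 23 windows, as well as an AP-1 and a GAGGAA match. The summits of the libraries were 212 bp apart there, so this window lies between them and contains neither. Repeats masked in the reference made up 73.1% of this window, and the window had 3963 other alignments in the genome, the best with 77.7% identity over 215 bp. Ranked by the smaller fold of both libraries, the strongest region of Fcgr2b was above 95.2% of all shared regions, and its 4 weaker ones were above 30.7 to 59.0% of them.

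The 2 regions beyond those, nearest to Fcrla, were also in the Fcgr2b window. Fcrla encodes an Fc receptor-like protein of B cells. The region chr1:170936256-170937019, 39.4 kb from the Fcgr2b TSS and 9.07 kb upstream of Fcrla, had folds of 18.5 and 28.9, from 56 and 68 fragments. Its smaller fold was close to that of the strongest Fcgr2b region. The other, chr1:170933946-170934579, had folds of 11.1 and 14.7 against control levels above the background, at 3.14 and 1.39 fragments.

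Fcgr4 (chr1:171018926-171029761, plus strand) encodes the activating receptor that was the last of the mouse family to be described. It was nearest to 3 shared regions, all of them upstream and intergenic. The farthest, chr1:170997658-170998633, lay 20.7 kb before the Fcgr4 TSS and 22.2 kb before that of Fcgr2b, in the stretch between both genes, which are transcribed away from it in opposite directions. Its fold was 14.0 in replicate 1, from 42 fragments (30.3 to 56.8), and 32.5 in replicate 2, from 71 fragments (55.5 to 89.6). These exceeded 92.5% and 98.1% of the folds in the lists. The fold intervals, 10.2 to 18.8 and 25.5 to 40.9, did not overlap, unlike those of the other 22 regions. The ratio between replicates was 2.32, above that of 96.3% of all shared regions, whose median was 1.39. The gap between the intervals includes the general shift of the folds between the lists. The summits were 222 bp apart in a region 976 bp wide.

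Closer to the Fcgr4 TSS lay 2 regions next to each other. The region chr1:171017158-171018219, at 1.25 kb upstream and 1062 bp wide, had folds of 9.1 and 17.1, from 27 and 37 fragments. The region chr1:171016920-171017124, at 1.91 kb upstream, was among the weakest, with folds of 5.2 and 4.51 from 15 and 9 fragments. The summits of both fell outside the 1 kb promoter, but the wider region reached into it with its downstream end. The 250 bases before the Fcgr4 TSS hold a match to GAGGAAGT that ends 17 bases before the start, but no peak summit of either list lay in them. A peak 15.14 kb downstream of the TSS, past the gene end, was called in replicate 2 alone, with a fold of 4.06 from 8 fragments.

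**Figure D1:**
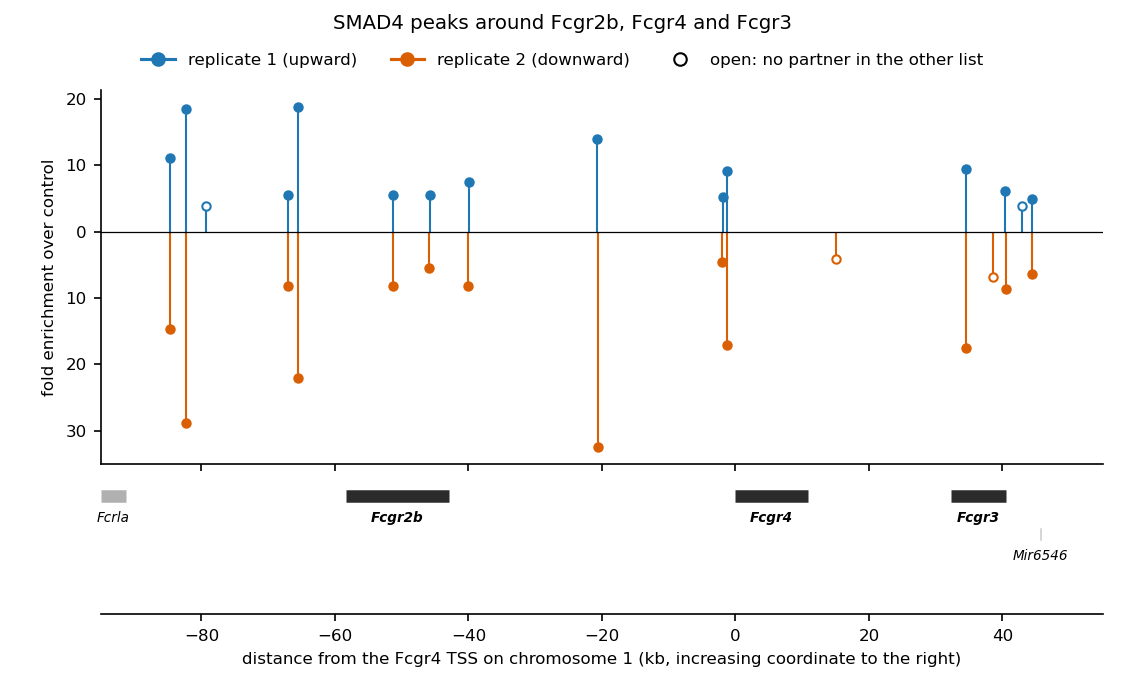
Peaks of both SMAD4 libraries around Fcgr2b, Fcgr4 and Fcgr3. The x axis is the distance of the summit from the Fcgr4 TSS in kb, stems give fold enrichment over control (replicate 1 upward, replicate 2 downward), open circles are peaks without a partner in the other list, and bars are gene bodies with the members in black. Tall stems in both libraries stand outside the gene bodies, at 20.7 kb before Fcgr4 (folds 14.0 and 32.5), past the end of Fcgr2b (18.8 and 22.1) and upstream of Fcrla (18.5 and 28.9).

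Fcgr3 (chr1:171051169-171059403, minus strand), the gene of the low-affinity activating receptor, was nearest to 2 shared regions. The stronger, chr1:171053314-171053902, lay in its last intron, intron 4 of 4, 5.87 kb downstream of the TSS. It had a fold of 9.42 in replicate 1, from 28 fragments (18.6 to 40.5), and of 17.6 in replicate 2, from 38 fragments (26.9 to 52.2). These exceeded 81.4% and 90.3% of the folds in the lists. The second, chr1:171059252-171059683, was the only shared region with its mean summit in a receptor gene's promoter, and that summit fell 4 bp inside exon 1. It had 18 fragments at the summit in each library (10.7 to 28.4), with folds of 6.17 and 8.57. Its ratio of 1.39 between replicates was at the median of all shared regions. The GAGGAA match in the window is the TTCCTC that closes the Fcgr3 promoter sequence shown above, immediately before the upstream one of the 2 curated starts.

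A further region 3.9 kb upstream of Fcgr3, chr1:171063274-171063613, had folds of 4.87 and 6.32. Its nearest curated TSS was that of the microRNA gene Mir6546. A peak in each library stood without a partner near Fcgr3. In replicate 2 alone, an intronic peak 1.84 kb downstream of the TSS had a fold of 6.77 from 14 fragments. In replicate 1 alone, a peak 2.46 kb upstream had a fold of 3.88 from 12 fragments.

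Fcer1g (chr1:171229572-171234349, minus strand), the gamma chain gene, was nearest to 1 shared region. It was chr1:171233013-171233471 in intron 1 of 4, 1.14 kb downstream of the TSS. Its fold was 7.8 in replicate 1, from 23 fragments (14.6 to 34.5), and 9.93 in replicate 2, from 21 fragments (13.0 to 32.1). The folds exceeded those of 73.2% and 71.2% of the peaks in the lists, so that this region stood at about the same rank in both. The window holds a C/EBP match, TTGCATAA, 78 bp from the mean summit. The same letters occur 54 bp from the summit of the region in intron 1 of Pcp4l1, at 49.8 kb from the Fcer1g TSS, where the folds were 9.1 and 10.8. Masked repeats made up 52.2% of that second window. The third region of the Fcer1g window lay in intron 6 of 7 of B4galt3, a galactosyltransferase gene, with folds of 5.52 and 12.2.

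Fcgr1 (chr3:96282909-96293969, minus strand), the high-affinity receptor gene, was nearest to 1 shared region. It was chr3:96300573-96301012, which was intergenic, 6.94 kb upstream of the TSS. Replicate 1 had 2 peaks there, with folds of 4.87 and 6.5, and replicate 2 had 1 between and across them, with a fold of 8.57. At the stronger summit of each library stood 19 (11.4 to 29.7) and 18 fragments (10.7 to 28.4), which exceeded 62.4% and 63.6% of the folds in the lists. At the Fcgr1 promoter, chr3:96293889-96294146 was a peak of replicate 2 alone. Its summit lay 59 bp before the TSS, with a fold of 7.22 from 15 fragments (8.4 to 24.7), above 52.6% of that list. No peak of replicate 1 overlapped it. The sequence shown above has a STAT match, TTCCCAGAA, 101 to 109 bases before this TSS, and a TTCCTC match 50 to 55 bases before it.

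The other 5 regions of the Fcgr1 window were nearest to other genes. Downstream lay 3 among the histone genes of the cluster next to Fcgr1. They were at the promoter of H4c14 (folds of 5.97 and 13.1), at the promoter of H2ac18 (3.38 and 5.26) and 5.17 kb from H3c14 (4.55 and 9.93). The H2ac18 region was the weakest of the 23, and its smaller fold was above that of 0.903% of all shared regions. Upstream lay 2 nearest to the noncoding gene Platr30, with folds of 5.85 and 6.32 and of 4.55 and 4.91.

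Fcgrt (chr7:45092993-45103822, minus strand), the neonatal receptor gene, had no peak of either library in its gene body or promoter. The window held 1 shared region, chr7:45082594-45082820, with folds of 5.52 and 7.22, from 16 (9.15 to 26.0) and 15 fragments (8.4 to 24.7). It lay 21.1 kb from the Fcgrt TSS, past the gene Rcn3 that stands between, and was assigned to the termination site of Rcn3. Masked repeats made up 44.3% of its window. A second peak next to it, in replicate 2 alone, had a fold of 4.51 from 9 fragments. The TSSs of 13 other genes lay in the Fcgrt window, more than for any other member.

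**Figure D2:**
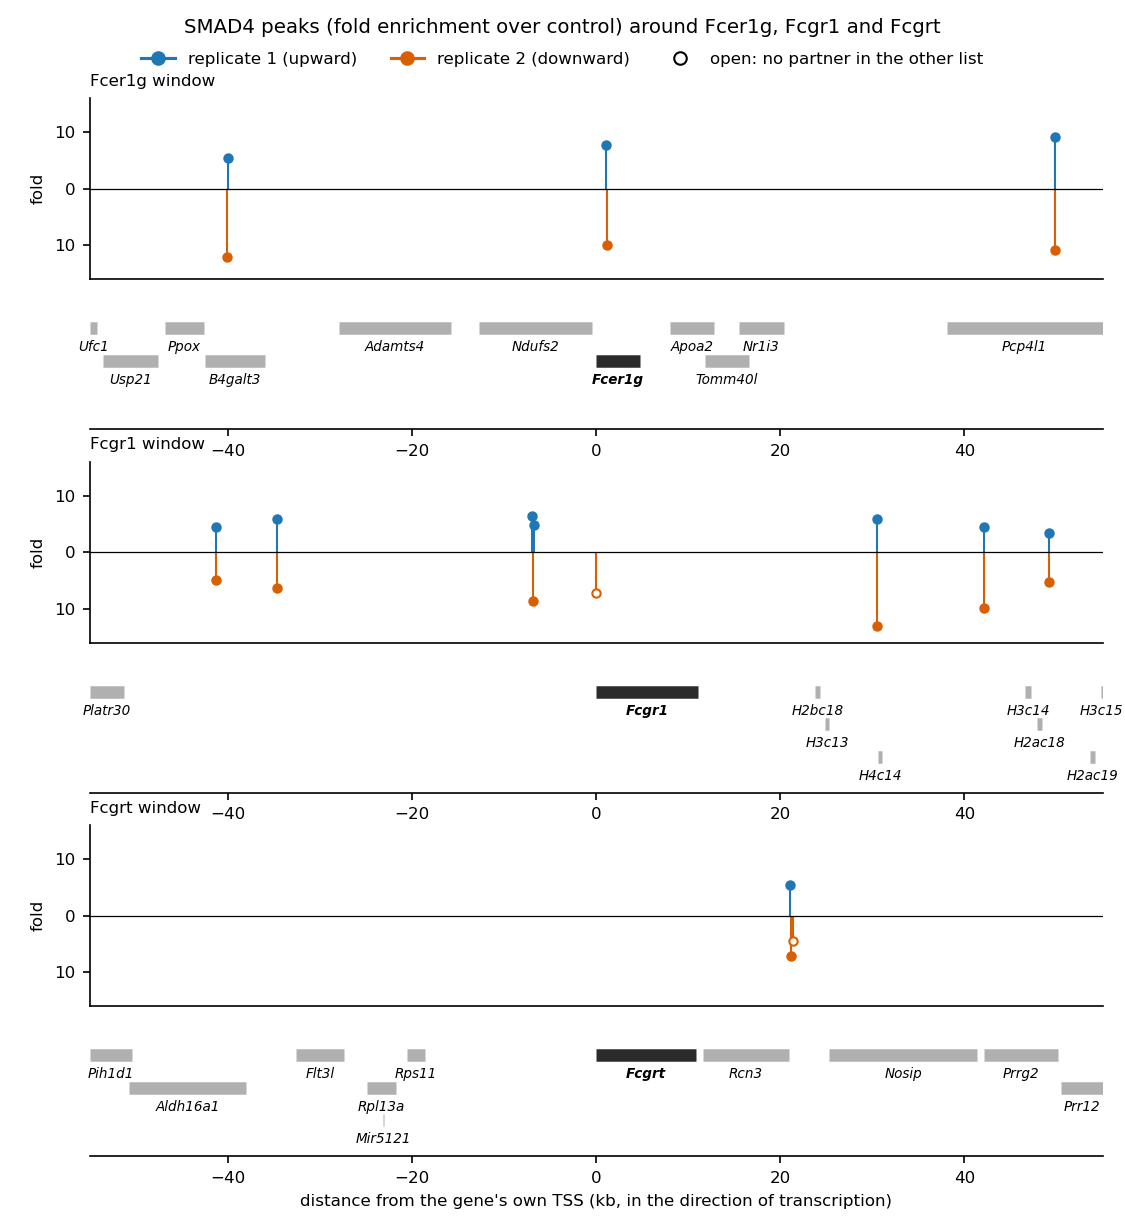
Peaks of both libraries around Fcer1g, Fcgr1 and Fcgrt. The x axis of each panel is the distance of the summit from the gene's own TSS in kb in the direction of transcription, stems give fold enrichment over control (replicate 1 upward, replicate 2 downward), open circles have no partner, and bars are gene bodies without small nucleolar RNA genes. Fcer1g has a shared region just inside the gene, Fcgr1 has one upstream and a single-library peak at the TSS, and the Fcgrt gene body is empty.

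Ranked by the mean fold of the strongest region, Fcgr4 stood first with 23.2 ± 13.1 (SD, n = 2). Fcgr2b followed with 20.5 ± 2.31, and Fcgr3 with 13.5 ± 5.78. Fcer1g had 8.86 ± 1.5, Fcgr1 had 7.54 ± 1.47, and the region in the Fcgrt window had 6.37 ± 1.2. Each SD includes the general shift of the folds between the lists. The order of Fcgr4 and Fcgr2b differed between the libraries, with Fcgr2b higher in replicate 1 and Fcgr4 in replicate 2. Their counting intervals overlapped in each library. Below them the order Fcgr3, Fcer1g, Fcgr1 and Fcgrt was the same in both libraries, but the counting intervals of each pair of neighbours in it overlapped. In replicate 1 the interval of Fcgr2b was apart from that of Fcgr3, and in replicate 2 the interval of Fcgr4 was. These are values of regions picked as the strongest, and no test was made on them.

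**Figure D3:**
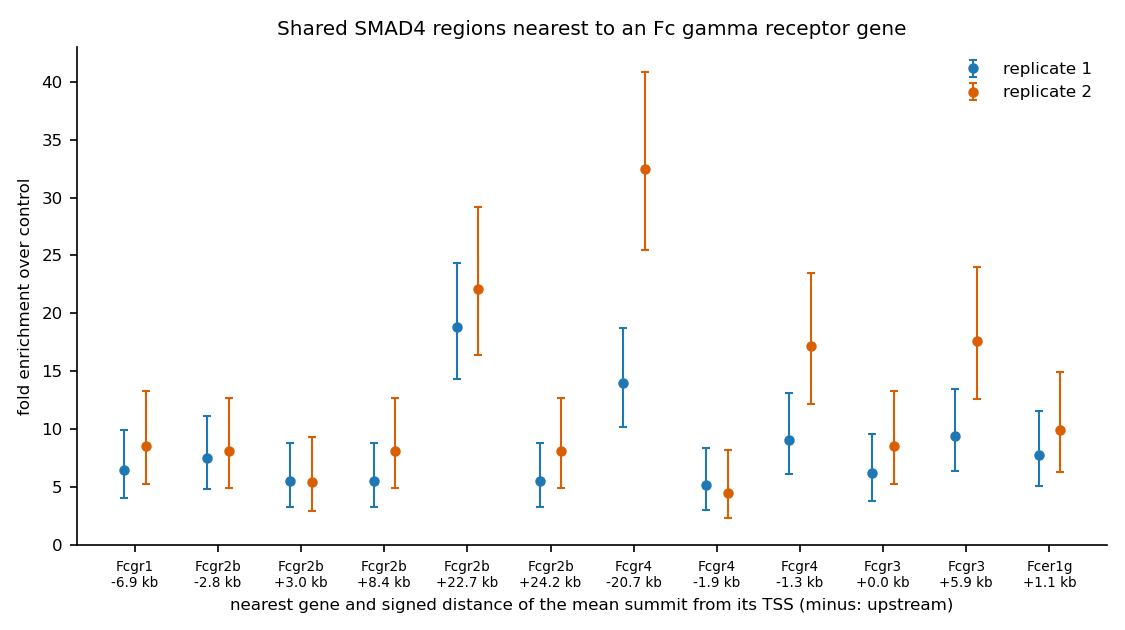
Fold enrichment of the 12 shared regions nearest to a receptor gene, by gene and signed distance of the mean summit from the TSS (minus is upstream). Points are the folds of replicates 1 and 2, and bars are exact Poisson 95% intervals of the summit pileup carried over to the fold. The region 20.7 kb upstream of Fcgr4 is the only one at which the intervals of both libraries, 10.2 to 18.8 and 25.5 to 40.9, stand apart.

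The median fold of the 12 regions was 6.99 in replicate 1 and 8.57 in replicate 2, beside 6.82 and 9.48 over all shared regions. Their windows had a median GC content of 43.5%, against 43.8%, and the regions a median width of 436 bp, against 440 bp. Of the 12 regions, 7 were intergenic, 4 intronic and 1 at a promoter. The 10 regions nearest to Fcgr2b, Fcgr4 or Fcgr3 lay within 107913 bp of chromosome 1.

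**Figure D4:**
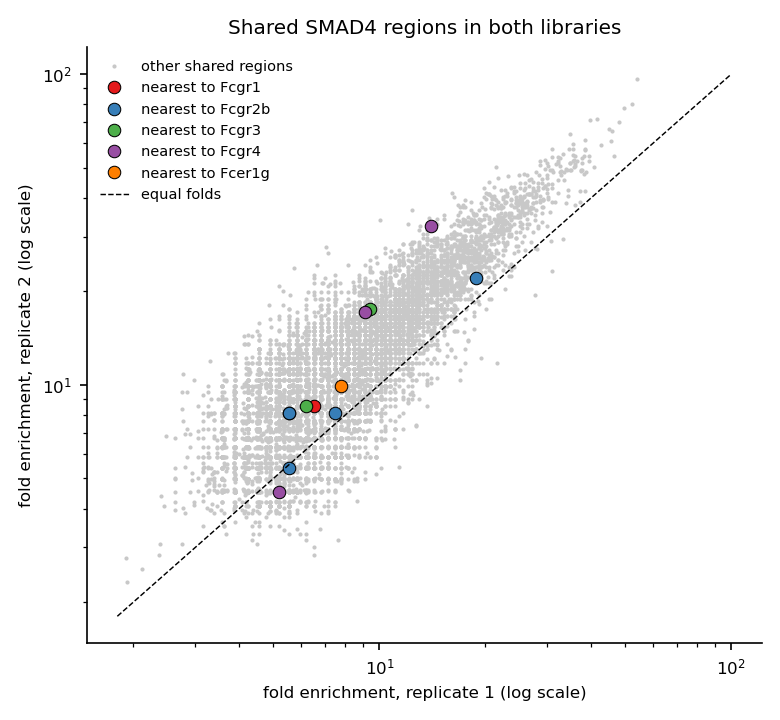
Fold enrichment of all 10964 shared regions in replicate 1 (x axis) and replicate 2 (y axis), both on log scales. Grey points are other regions, coloured points are the 12 regions nearest to a receptor gene (2 of Fcgr2b coincide at 5.52 and 8.12), and the dashed line marks equal folds. The coloured points spread over the grey cloud, and the Fcgr4 point at 14.0 and 32.5 lies at its upper edge.

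Counted by window, Fcgr2b had 10 shared regions, and 0.292% of protein-coding genes had as many or more. Fcgr4 had 8, a number reached by 0.607%, Fcgr1 had 6 (1.97%) and Fcgr3 had 5 (3.33%). Fcer1g had 3 (10.3%) and Fcgrt had 1 (39.1%). Neighbouring windows share regions. Nearest to another gene were 5 of the 10 regions of the Fcgr2b window, 5 of the 8 of Fcgr4 and 5 of the 6 of Fcgr1. The same held for 3 of the 5 of Fcgr3, 2 of the 3 of Fcer1g and the 1 of Fcgrt. Regions nearest to the gene itself were also counted alone. Then 1.7% of protein-coding genes had at least the 5 of Fcgr2b, and 4.84% at least the 3 of Fcgr4. The 2 of Fcgr3 were reached by 9.2%, and the 1 each of Fcgr1 and Fcer1g by 21.5%, while Fcgrt had 0. Just inside the 50 kb limit, the Pcp4l1 region lay 49814 and 49793 bp from the Fcer1g TSS in replicates 1 and 2, with folds of 9.1 and 10.8. Just outside it, the region in intron 3 of Fcgr2b lay 51268 and 51289 bp from the Fcgr4 TSS, with folds of 5.52 and 8.12.

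**Figure D5:**
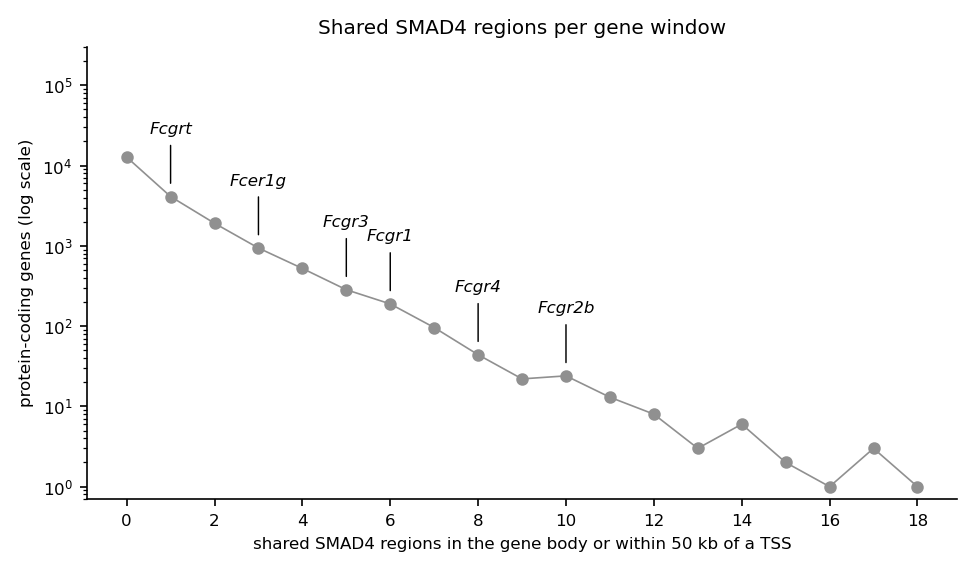
Number of protein-coding genes (y axis, log scale) by the number of shared SMAD4 regions in the gene body or within 50 kb of a TSS (x axis). Lines point to the 6 members, which run from 1 region for Fcgrt to 10 for Fcgr2b.

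The strings were counted in the summit windows of all 23 regions and set beside the windows of all shared regions. GAGGAA occurred in 9 of 23 windows (39.1%), and in 34.6% of the windows of all shared regions. The longer GAGGAAGT occurred in 3 of 23 (13.0%), against 8.01%. The C/EBP string occurred in 5 of 23 (21.7%), against 23.6%, and the nuclear receptor string in 4 (17.4%), against 15.4%. AP-1 and RUNX strings occurred in 2 windows each, against 8.93% and 16.3% of all windows. STAT, E-box and GTCTGG strings occurred in 1 each, against 4.27%, 3.65% and 11.2%. Neither the GC-rich SMAD strings nor the RBPJ string occurred in any of the 23 windows, where 10.8% and 4.14% of all windows have them. The count of 0 for the GC-rich strings rests on the mean summit, since windows around the summit of replicate 1 or replicate 2 alone gave 1 and 2, and windows of 200 bp each side gave 4. With 23 windows such shares move by several percentage points with a single window, and a match is a run of letters, not a measured site. In the 250 bases before a curated TSS, members were counted by gene, at any of their curated starts, but the background by promoter sequence. GAGGAA occurred there at Fcgr1, Fcgr3 and Fcgr4, 3 of 6 genes, against 23.3% of 32851 promoter sequences. GAGGAAGT occurred there at Fcgr4 alone, against 2.44%, and the STAT string at Fcgr1 alone, against 3.74%. GTCTGG and the nuclear receptor string occurred at Fcgr2b alone, against 14.7% and 14.0%. The GC-rich SMAD strings occurred at 0 of 6 genes, against 43.4%, and the C/EBP string at 0 of 6, against 4.58%. AP-1, RUNX, E-box and RBPJ strings were also at 0 of 6, against 4.46%, 7.67%, 6.02% and 5.42%.

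Fcgr2b, Fcgr3 and Fcgr4 arose by duplication and resemble each other in sequence, so that reads could in principle be placed at the wrong copy. Of the 12 windows nearest to a receptor gene, 11 had no other alignment in the genome at a BLAST e-value of 1e-05, the exception being the repeat-rich one upstream of Fcgr2b. Only the 201 bases of each window were searched, whereas the regions were as wide as 1062 bp. The windows of the regions with summits 212 and 222 bp apart contain neither summit. Likeness of the rest of each region to other copies was not checked. Among the windows nearest to another gene, the only one of Fcgrt, at Rcn3, had 6007 other alignments. Its best had 71.3% identity over 143 bp. The Pcp4l1 window had 15809, the best with 75.7% identity over 189 bp, and the weaker Fcrla window had 19. The rest had 1 or 0.

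Other genes of Fc receptor biology were taken as 4 lists with 37 genes in all, made up of kinases and effectors, inhibitors, partners and adaptors, and other Fc receptors and Fc receptor-like genes. Of these, 19 (51.4%) were nearest to at least 1 shared region, beside 21.5% of protein-coding genes and 5 of 6 receptor genes. Among kinases and effectors of the activating receptors, 11 of 14 genes were nearest to a region, 34 regions in all. Syk, the kinase recruited by the gamma chain, had the strongest, with folds of 22.4 and 27.1 in an intron 27.46 kb downstream of its TSS. Lyn, a Src family kinase, had one with folds of 17.0 and 22.1 in an intron 3.62 kb downstream. Gab2, an adaptor for PI3-kinase, had one with folds of 16.2 and 17.6, 6.56 kb upstream. The kinase gene Btk and the exchange factor gene Vav1 were among those nearest to none.

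Among the inhibitors, 4 of 6 genes were nearest to a region. Cbl, a ubiquitin ligase, had folds of 17.9 and 33.0 at a region with raised control levels of 6.27 and 3.7 fragments. Csk, the kinase that inactivates Src family kinases, had 10.4 and 22.1 at 1.24 kb upstream. Inpp5d, which encodes SHIP1, the phosphatase recruited by the inhibitory receptor, had 6.5 and 7.22. Among partners and adaptors, 2 of 5 were nearest to a region. They were Tyrobp, an adaptor related to the gamma chain, with folds of 5.85 and 6.32, and its neighbour Hcst, with 5.2 and 7.22 at its promoter. B2m, the partner of the neonatal receptor, had 2 regions in its window, none nearest to it. Among other Fc receptors and Fc receptor-like genes, 2 of 12 were nearest to a region, Fcrla and its neighbour Fcrlb (5.85 and 11.7), both next to Fcgr2b. The IgE receptor gene Fcer1a and the polymeric immunoglobulin receptor gene Pigr had no region in their windows.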

How the data were processed

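SMAD4 HT-ChIPmentation peak lists of AMs (2 libraries) were analysed; the 2 inputs enter only as the authors' control. Per the study's methods and the submitters' processing notes, the authors used Cutadapt for trimming and Bowtie2 for alignment to mm10, dropped duplicates and reads of low mapping quality, and called peaks per library with MACS3 at q of 0.05 against input. Each deposited peak has a fold ratio over the control, a −log10 p, a −log10 q, a summit offset and a score, which in the deposited lists is the −log10 q multiplied by 10 without decimals (within 1). Read totals were not used here. Reads dropped for low mapping quality leave repeats and near-identical copies undercounted.

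From fold and p, the summit pileup (whole fragments) and the control level were solved; simulated pileups, partners and motifs were recovered in a check. Shared regions are merged peaks of both lists overlapping by 1 bp, with the mean of both best summits as centre. Genes were curated RefSeq transcripts on GRCm38, which names the same assembly as mm10; coordinates are 1-based. Features followed HOMER's order of promoter, termination site (100 bp before to 1 kb after a transcript's end), exon, intron and intergenic. Strings were searched 100 bp each side of the summit on both strands. With 1 condition, no test was made. Members and lists were chosen with earlier results of these data known. The text names all members, any gene whose TSS is nearest to a shared region in a member's window, and of each list up to 3 genes with the highest smaller fold of both replicates. List genes without such a region (Btk, Vav1, B2m, Fcer1a and Pigr) were named after their values were seen. Alternatives were other windows, overlap rules, q and fold limits, transcript sets, and each library alone. Python 3.11.15, numpy 2.4.6, scipy 1.17.1, pysam 0.24.0 and BLAST 2.17.0 were used.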

Additional observations from a re-analysis of the deposited data

How the results depend on the processing

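Windows of 10 kb left 12 peaks in replicate 1, 12 in replicate 2 and 10 shared regions. Under the other alternatives to the counts of peaks and regions (100 kb, q of 0.01, fold of at least 5, predicted transcripts, 50% reciprocal overlap, summits within 100 bp), each stayed within 1.5 times, and each library alone gave 26 to 27 peaks. The number of genes with a region in the window was 5 to 6, without Fcgrt at 10 kb. The number nearest to one was 4 to 5, without Fcgr1 under reciprocal overlap. The strongest region of each gene had its control at the background level already, so that folds over that level could not differ there. String counts moved most. At 50 bp each side, C/EBP, AP-1, STAT and GTCTGG had 0 windows each. At 200 bp, RUNX had 6, the E-box 2, the nuclear receptor string 7, GTCTGG 4, the GC-rich SMAD strings 4 and RBPJ 1. Around the summit of replicate 1, C/EBP had 3, AP-1 1, RUNX 4 and GC-rich SMAD 1. Around that of replicate 2, the E-box had 2 and GC-rich SMAD 2. Windows this few limit what string counts can show, and a peak missing from 1 list says only that it was not called at that depth.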
